A study of Sus scrofa with 6 samples.

Results

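Voltage-gated sodium and calcium channels were examined through 9 genes, SCN2A, SCN3A, SCN8A, CACNA1A, CACNA1B, CACNA1C, CACNA1D, CACNA1E and CACNA2D1. They were picked by gene symbol and not by a cut on their values, though earlier results of these data were known. Of the 30477 genes counted, 6 members carried their symbol in the deposited tables, and 2, CACNA1A and CACNA1C, were listed there by gene number alone and were named through a reference table. CACNA1B was not analysed here, so that values were obtained for 8 of the 9 genes. Each was described per library and day in cells with at least 1 UMI of STMN2, a microtubule regulator of growing neurons, and within GABAergic, glutamatergic and TH-positive cells.

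The cells came from porcine midbrain-like organoids (pMLOs), all grown from a single embryonic stem cell line, IVF_1_ pESC_FIW, with no genetic change. Organoids of all 3 days went through neural induction with SB431542 and Noggin, ventral and caudal patterning with SHH and the GSK3 inhibitor CHIR99021, then FGF8, BDNF and ascorbic acid. By the methods of the study, embedding in Matrigel and the terminal medium (with GDNF, db-cAMP and DAPT, on an orbital shaker) came after D11, so that the D28 and D45 organoids had received them and the D11 organoids had not. In every comparison with D11, time in culture and these later treatments cannot be told apart. Droplet-based single-cell RNA sequencing was run on day 11 (D11), day 28 (D28) and day 45 (D45), and each day gave 2 libraries, called replicates A and B here as in the labels and described by the study as biological duplicates of the same line.

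A neuron fires when voltage-gated sodium channels open and drive the upstroke of the action potential, and the depolarisation then opens voltage-gated calcium channels that let in calcium for transmitter release, pacemaking and gene regulation. SCN2A, SCN3A and SCN8A encode pore-forming alpha subunits of sodium channels. SCN3A is best known from the embryonic brain and SCN8A from the axon initial segment and nodes of mature neurons. CACNA1A encodes the pore of the P/Q-type calcium channel of presynaptic terminals, CACNA1C and CACNA1D those of L-type channels, and CACNA1E that of the R-type channel. The CACNA1D channel opens at rather negative voltages and carries part of the pacemaking current of midbrain dopaminergic neurons. CACNA2D1 is an auxiliary alpha2delta subunit, the binding site of gabapentin, which helps to bring the pore subunits to the membrane.

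In Sscrofa11.1, the genome build of the deposited tables, SCN3A (ENSSSCG00000015911) lies at chr15:71717330-71824190, SCN8A (ENSSSCG00000000228) at chr5:16977468-17173831, CACNA1A (ENSSSCG00000013754) at chr2:65491784-65871068 and CACNA1C (ENSSSCG00000041764) at chr5:69016954-69448428. CACNA1D (ENSSSCG00000011455) lies at chr13:35568534-35911483, CACNA1E (ENSSSCG00000015543) at chr9:122827386-123318372 and CACNA2D1 (ENSSSCG00000015402) at chr9:97781057-98265925. SCN2A (ENSSSCG00000015905) is named without coordinates. All 7 placed genes with values are long: they span 106861 to 490987 bases, against a median of 19160 bases over 20663 protein-coding genes, and stand between the 86.9 and 98.7 percentiles of that distribution.

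The promoters of CACNA1D, which rose at each step between days, of CACNA2D1, which differed between kinds of neuron, and of SCN3A, which among the placed genes had the widest gap between cells with and without STMN2, are unlike in base composition. The gap was wider for SCN2A, which is not placed here. They are shown from RefSeq on Sscrofa11.1, from 250 bases before to 50 bases after the gene start, 5′ to 3′ on the strand of the gene, with each CG dinucleotide in capitals. CACNA1D is at chr13:35568284-35568583 on the plus strand, CACNA2D1 at chr9:97780807-97781106 on the plus strand and SCN3A at chr15:71824141-71824440 on the minus strand.
CACNA1D: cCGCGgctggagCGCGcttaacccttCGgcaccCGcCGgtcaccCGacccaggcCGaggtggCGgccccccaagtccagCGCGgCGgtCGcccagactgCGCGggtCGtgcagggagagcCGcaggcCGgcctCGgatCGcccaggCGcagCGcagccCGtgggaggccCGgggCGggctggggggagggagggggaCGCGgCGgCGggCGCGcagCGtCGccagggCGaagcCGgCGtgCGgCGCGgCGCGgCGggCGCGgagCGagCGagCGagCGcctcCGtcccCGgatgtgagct
CACNA2D1: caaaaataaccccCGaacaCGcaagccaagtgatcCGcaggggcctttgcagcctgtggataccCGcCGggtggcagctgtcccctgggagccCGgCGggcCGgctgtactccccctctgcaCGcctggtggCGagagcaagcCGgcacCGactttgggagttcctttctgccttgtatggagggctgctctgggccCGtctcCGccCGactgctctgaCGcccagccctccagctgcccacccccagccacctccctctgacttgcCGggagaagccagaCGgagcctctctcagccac
SCN3A: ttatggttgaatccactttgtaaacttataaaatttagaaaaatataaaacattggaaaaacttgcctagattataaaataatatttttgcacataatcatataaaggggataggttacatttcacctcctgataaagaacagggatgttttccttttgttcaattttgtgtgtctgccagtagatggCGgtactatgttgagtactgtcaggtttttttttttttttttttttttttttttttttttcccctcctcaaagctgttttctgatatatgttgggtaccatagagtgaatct
The CACNA1D promoter holds 51 CG dinucleotides and 80.67% G or C, and 2.443% of 19569 promoters of the same length hold as many CG. The CACNA2D1 promoter holds 18, which 46.05% of promoters reach, and the SCN3A promoter holds 1, which 97.16% reach. SCN8A, at 53 CG, and CACNA1D were in the CG-rich tail of the distribution, while CACNA1C with 40 and CACNA1E with 36 were above the median of 16, and CACNA1A with 4 was below it.

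Sodium channel genes of neurons are classical targets of REST, a repressor that binds the RE1 element. An RE1-like run of 15 letters, TTCAGCACC and GGACAG separated by 2 free bases, was looked for on both strands within 5 kb on each side of the gene start. With at most 2 letters differing, 1068 of 19573 genes (5.456%) held it. SCN2A, which has no coordinates here, was not searched. Among the 7 members with a start, SCN8A alone held such a run, in an intron 2619 bases downstream of its start. The 17 bases lie at chr5:16980079-16980095 on the minus strand and are shown with 10 bases on each side, with the 13 matching letters in capitals.
SCN8A: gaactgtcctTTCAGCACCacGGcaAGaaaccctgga
A match of letters is a description and does not show binding.

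The 6 libraries held 104820 cell barcodes, of which 103519 were kept (200 to 7000 detected genes and at most 10% mitochondrial UMIs), 13954 to 21615 per library. They held 106851387 to 180098372 UMIs per library, and the median cell had 8821 to 10741 UMIs on D11, falling to 5499.5 and 8095 at D28 and to 2240 and 4242 at D45. Pairs of libraries shared 55 to 119 barcodes, at most 0.650% of the smaller library. Doublets were not called, and the alternative without cells of mixed markers is given where it changed a result. The submitters labelled every sample as midbrain dopaminergic neurons. A TH UMI together with STMN2 was found in 3.14 to 10.9% of kept cells, a share that depends on depth, since a cell without a TH UMI may still express the gene. SLC6A3, the dopamine transporter, was at 0.548 to 3.04 CPM in STMN2-positive cells.

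STMN2-positive cells numbered 3946 and 7214 in the D11 libraries, 10710 and 9695 at D28, then 14594 and 12715 at D45. This gate was not pure. Of the D28 and D45 cells with 3 or more fibroblast or oligodendrocyte lineage markers, in libraries with at least 89 such cells, 51.7 to 67.1% held an STMN2 UMI. On these days the share was 59.7 to 75.1% with floor plate and 53.5 to 69.9% with mitotic markers. With astrocyte markers it was 65.1 and 63.4% on D45. The floor plate and mitotic shares overlapped with the share over all kept cells of these days, given further on. A stricter gate was therefore added after the data were seen (3 or more STMN2 UMIs, at least 4 of DCX, ELAVL3, ELAVL4, SNAP25, SYT1 and MAPT, and fewer than 2 markers of any other cell list), which left 788 and 832, 1897 and 2698, and 2391 and 1744 cells. Levels are in counts per 1000000 (CPM): a gene's UMIs in the cells summed, divided by all UMIs of those cells and scaled to 1000000. In such sums, fewer cells using a gene and less RNA per cell cannot be told apart. UMIs are counted at transcript ends, so CPM is compared here for the same gene across cells and days, and not between genes.

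Across days in STMN2-positive cells, CACNA1D rose at each step, and CACNA2D1 and SCN2A rose to D28 and were above D11 on D45. With all libraries in the fit the other 5 channel genes passed no test between days. All p-values for days rest on the spread between 2 libraries a day. In alternatives with a library left out, its day holds a single library, and the spread comes from the other days alone. TMM scaling removed a shift of 0.18 on the log2 scale from the D28 against D11 fold changes, 0.12 from D45 against D28 and 0.30 from D45 against D11, by which plain CPM ratios stand higher than the fitted values. For D45 against D11 the shift was 0.41 in whole organoids, 0.14 in GABAergic, 0.20 in glutamatergic and 0.29 in TH-positive cells.

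**Figure D1:**
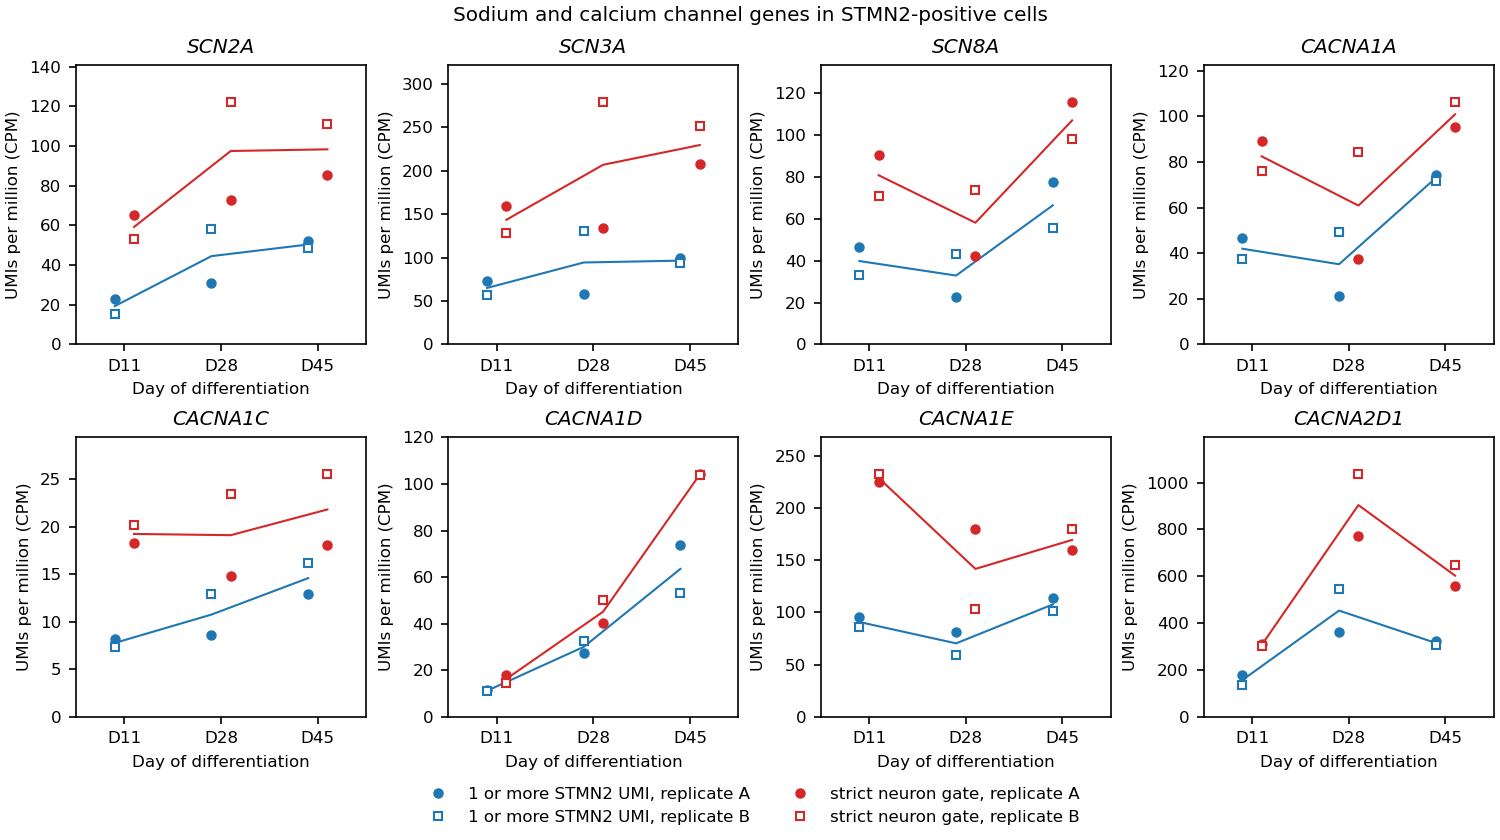
Level (CPM) of 8 channel genes on D11, D28 and D45 in STMN2-positive cells (blue, at least 1 UMI) and in the stricter neuron gate (red), with replicate A filled, replicate B open and lines through the day means. CACNA1D climbed from 10.9 and 11.3 CPM on D11 to 53.3 and 73.8 CPM on D45 and did so in both gates, while CACNA2D1 stood highest on D28.

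CACNA1D was at 11.3 and 10.9 CPM in the D11 libraries, 27.5 and 32.5 CPM on D28, and 73.8 and 53.3 CPM on D45, from 517 to 6862 UMIs per library. No library of a later day overlapped with an earlier day, an order that 41.7% of all genes tested showed upwards from D11 to D28 and 30.4% from D28 to D45. The day means were 11.14 ± 0.303, 30.0 ± 3.53 and 63.5 ± 14.5 CPM (SD, n = 2 libraries). The fitted increase was 1.24 on the log2 scale from D11 to D28 (SE 0.188, adjusted p = 0.00674, edgeR quasi-likelihood test, Benjamini-Hochberg adjusted across all genes tested), 0.97 from D28 to D45 (SE 0.185, edgeR adjusted p = 0.0324) and 2.21 from D11 to D45 (SE 0.193, edgeR adjusted p = 0.000582). The step from D11 to D28 was lost without either D11 library (adjusted p = 0.0963 without A and 0.0923 without B, edgeR). The D11 to D45 increase passed under all 16 alternatives, between 2.01 and 2.46. The step from D28 to D45 was lost in 6 of 16, without either D11 library (adjusted p = 0.107 without A and 0.106 without B, edgeR), without either D45 library (0.209 and 0.103), with the replicate block (0.0822) and with cells thinned to equal UMIs (0.0639).

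CACNA2D1 was at 176 and 137 CPM on D11, 361 and 545 CPM on D28, and 325 and 305 CPM on D45. D28 and D45 both lay above D11 without overlap, and the highest and the next highest library were those of D28. It rose by 1.33 on the log2 scale from D11 to D28 (SE 0.217, edgeR adjusted p = 0.0088), and the call was lost without either D11 library (0.0916 without A and 0.14 without B) and at 3 or more STMN2 UMIs (0.0831). From D28 to D45 the difference was -0.62 (edgeR adjusted p = 0.118). Against D11, D45 was higher by 0.72 (SE 0.215, edgeR adjusted p = 0.0456), a call that 12 of 16 alternatives lost. Over the 16 the difference ranged from 0.11 to 0.86. Markers of glutamatergic neurons, in which CACNA2D1 was higher than in GABAergic ones (described further on), moved with it in the same sums. Their list of 9 genes was at 31.1 and 27.9 CPM on D11, 117 and 139 CPM on D28, and 54.7 and 68.7 CPM on D45 (57.2 and 64.9, 270 and 266, and 98.1 and 125 CPM in the stricter gate), and its part in the CACNA2D1 result was not tested.

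SCN2A was at 23.1 and 15.5 CPM on D11, 30.8 and 58.3 CPM on D28, and 52.1 and 48.7 CPM on D45. The D28 libraries stood far apart, on either side of those of D45, and all 4 later libraries lay above D11. It rose by 0.99 on the log2 scale from D11 to D28 (SE 0.258, edgeR adjusted p = 0.0421) and by 1.09 from D11 to D45 (SE 0.259, edgeR adjusted p = 0.0209), with 0.10 between D28 and D45 (adjusted p = 0.814). Of 16 alternatives, 11 lost the former call and 8 the latter. Over the 16 the difference ranged from 0.37 to 1.27 for D28 and from 0.40 to 1.35 for D45, each against D11. In the stricter gate SCN2A was at 65.3 and 53.1, 72.6 and 122, and 85.4 and 111 CPM, and the D45 against D11 difference was 0.42 (edgeR adjusted p = 0.232).

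The sodium channel gene SCN3A was at 73.3 and 56.8 CPM on D11, 58.5 and 130 CPM on D28, and 99.2 and 93.7 CPM on D45. SCN8A was at 46.3 and 33.2, 22.5 and 43.2, and 77.2 and 55.4 CPM. For both genes the D28 replicates stood far apart, and D45 lay above D11. The D45 against D11 difference was 0.28 for SCN3A (edgeR adjusted p = 0.503) and 0.44 for SCN8A (edgeR adjusted p = 0.261), and neither passed. SCN8A in D45 against D28 was at 0.93 on the log2 scale (adjusted p = 0.0837).

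Among the remaining calcium channel pores, CACNA1A was at 46.7 and 37.3 CPM on D11, 21.3 and 49.1 CPM on D28, and 74.2 and 71.8 CPM on D45, and D45 against D28 came to 0.99 (edgeR adjusted p = 0.0844). CACNA1C was at 8.17 and 7.35, 8.55 and 12.9, and 13.0 and 16.2 CPM, with a D45 against D11 difference of 0.62 (adjusted p = 0.0827). Both were highest on D45 without passing. CACNA1E, the R-type pore, was at 95.4 and 86.3, 81.6 and 59.1, and 114 and 102 CPM, and its D45 against D11 difference was -0.05 after TMM scaling (adjusted p = 0.901) and 0.25 as a plain CPM ratio, so its direction depends on the scaling.

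Set against all genes, 3 of the 8 members were called higher in D28 against D11, where 8.57% of 21393 genes were called higher and 16.0% in either direction. In D45 against D28 it was 1 of 8, where 3.38% were called higher and 6.10% in all. In D45 against D11 it was 3 of 8, where 14.2% were called higher and 27.3% in all. No member was called lower between days with all libraries in the fit, where 7.46% of genes were called lower in D28 against D11 and 13.0% in D45 against D11. Some alternatives added calls. In D28 against D11, CACNA1A (-1.05) and SCN8A (-0.89) were called lower without D28 replicate B. Without D28 replicate A, CACNA1E (-0.95) was called lower and SCN3A (0.67) higher. These calls rest on a single D28 library, so the distance between the D28 replicates does not enter them. CACNA1E was also called lower at 3 or more STMN2 UMIs (-1.02, edgeR adjusted p = 0.0476). In D45 against D28, CACNA2D1 was called lower with the DESeq2 Wald test (-0.62, adjusted p = 0.0455) and, on a single D28 library, without D28 replicate A (-0.76). Higher calls were added there for CACNA1A under 3 alternatives, SCN8A under 2 and CACNA1E under 1. Of these, only the DESeq2 calls of CACNA1A and SCN8A held both D28 libraries. In D45 against D11, higher calls were added for CACNA1A and CACNA1C without either D28 library. The members' median difference in D45 against D11 was 0.56 on the log2 scale, against 0.05 over all genes tested. In plain CPM the D45 libraries of all 8 members lay above those of D11, as they did for 55.1% of all genes, so that this order is no result about the members.

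Markers of other cell types moved across the same days in the same sums. In D45 against D11, 5 of 6 fibroblast, 8 of 8 oligodendrocyte lineage and 3 of 5 astrocyte markers tested were higher, and 6 of 6 floor plate and 5 of 5 mitotic markers were lower. Their summed level in STMN2-positive cells went from 10.3 and 16.8 CPM on D11 to 761 and 2189 CPM on D45 for the fibroblast list, from 23.3 and 25.2 to 976 and 752 CPM for the oligodendrocyte lineage list, from 32.9 and 31.2 to 370 and 428 CPM for the astrocyte list, from 1341 and 1404 to 209 and 300 CPM for the floor plate list and from 891 and 873 to 168 and 204 CPM for the mitotic list. No marker of these lists was at 0 in any library. In the stricter gate the fibroblast list was at 1.98 and 2.14 CPM on D11 and 39.2 and 76.0 CPM on D45. The oligodendrocyte lineage list was at 16.5 and 16.9 and then 37.1 and 40.3 CPM, and the astrocyte list at 2.64 and 1.87 and then 32.0 and 41.0 CPM. The list of 9 neuron markers fell from 4413 and 4090 CPM on D11 to 2822 and 2964 CPM on D45 in STMN2-positive cells. In the stricter gate it went from 12099 and 13066 to 5343 and 6351 CPM, and its part in the day differences was not tested. There CACNA1D was at 18.0 and 14.5, 40.2 and 49.997, and 104 and 104 CPM, and its D45 against D11 increase was as large, at 2.37 on the log2 scale (edgeR adjusted p = 0.000277). CACNA2D1 in that gate rose by 1.34 from D11 to D28 (edgeR adjusted p = 0.00841), from 312 and 301 CPM to 770 and 1037 CPM, and stood at 556 and 648 CPM on D45.

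In whole organoids the share of STMN2-positive cells was 26.8 and 33.4% on D11, 74.8 and 69.5% at D28 and 71.9 and 68.4% at D45. With all kept cells summed, 6 of the 8 members were higher on D45 than on D11, where 17.3% of 22197 genes were called higher and 34.7% in all. CACNA1D went from 9.04 and 8.85 CPM to 67.3 and 46.3 CPM, a difference of 2.25 (edgeR adjusted p = 0.000527), and its D45 libraries lay above those of D11, as did 57.8% of all genes tested. SCN2A went from 7.75 and 6.41 CPM to 46.1 and 40.0 CPM, a difference of 2.19 (edgeR adjusted p = 0.000867). CACNA2D1 rose by 1.45 (edgeR adjusted p = 0.00183), CACNA1C by 1.22 (0.00545), CACNA1A by 0.92 (0.0418) and SCN8A by 0.85 (0.0387). Leaving out any of the D11 or D45 libraries lost the calls of SCN8A (adjusted p = 0.073 to 0.23) and CACNA1A (0.132 to 0.168), and leaving out either D11 library lost that of CACNA1C (0.0617 without A and 0.0549 without B). The replicate block also lost those of SCN8A (0.0726) and CACNA1A (0.059). SCN3A, at 0.50 (adjusted p = 0.175), and CACNA1E, at 0.68 (0.0807), did not pass, though each was called higher in 3 of 12 alternatives, without either D28 library (adjusted p = 0.00411 and 0.00761 for SCN3A, 0.00101 and 0.00153 for CACNA1E) and with thinned cells (0.0206 and 0.029). SCN8A, CACNA1A and CACNA1C passed here and not within STMN2-positive cells, and whether the change differed between these sums was not tested.

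All 8 genes were higher in STMN2-positive than in STMN2-negative cells of the same library, in 6 of 6 libraries, where 21.6% of 21663 genes were higher in every library, 14.0% were called higher and 34.8% were called in all. The gap was widest for SCN2A, which was at 1.53 and 1.28 CPM in the STMN2-negative cells of D11, 3.39 and 6.61 CPM on D28 and 24.4 and 14.5 CPM on D45, 2.66 below STMN2-positive cells on the log2 scale (SE 0.370). SCN3A differed by 1.95 (SE 0.342), CACNA1E by 1.53 (SE 0.195) and CACNA2D1 by 1.42 (SE 0.134). SCN8A (0.98, SE 0.105), CACNA1C (0.94, SE 0.246) and CACNA1A (0.84, SE 0.171) followed, and CACNA1D had the narrowest gap, 0.66 (SE 0.0952). The edgeR adjusted p-values ran from 0.000264 to 0.018, and the call of CACNA1C was lost without D28 replicate B (0.0528). The members' median was 1.20 against -0.04 over all genes tested. STMN2 itself defined the cells and was not a finding.

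Cells without STMN2 but with markers of another type showed where else these genes were read (at least 3 markers of exactly 1 list). On D45 CACNA1A was at 118 and 126 CPM in cells with oligodendrocyte lineage markers, and at 112 CPM in D28 replicate B, above the 74.2 and 71.8 CPM of STMN2-positive cells of D45. SCN8A was at 43.9 and 47.4 CPM there on D45. SCN2A and SCN3A, by contrast, were at 9.05 and 3.83 CPM and at 8.66 and 5.19 CPM in the same cells. CACNA1C was at 35.7 and 34.2 CPM in cells with fibroblast markers on D45, against 13.0 and 16.2 CPM in STMN2-positive cells, and CACNA1E was at 71.4 and 60.2 CPM there. CACNA2D1 was at 141 and 166 CPM in cells with floor plate markers and 138 and 152 CPM in cells with fibroblast markers. SCN3A was at 48.5 and 38.5 CPM in floor plate marker cells on D11 and at 3.77 to 6.86 CPM in them later. The fibroblast, oligodendrocyte lineage and floor plate gates held 111 to 458 cells per library on D45 and were not tested against each other.

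**Figure D2:**
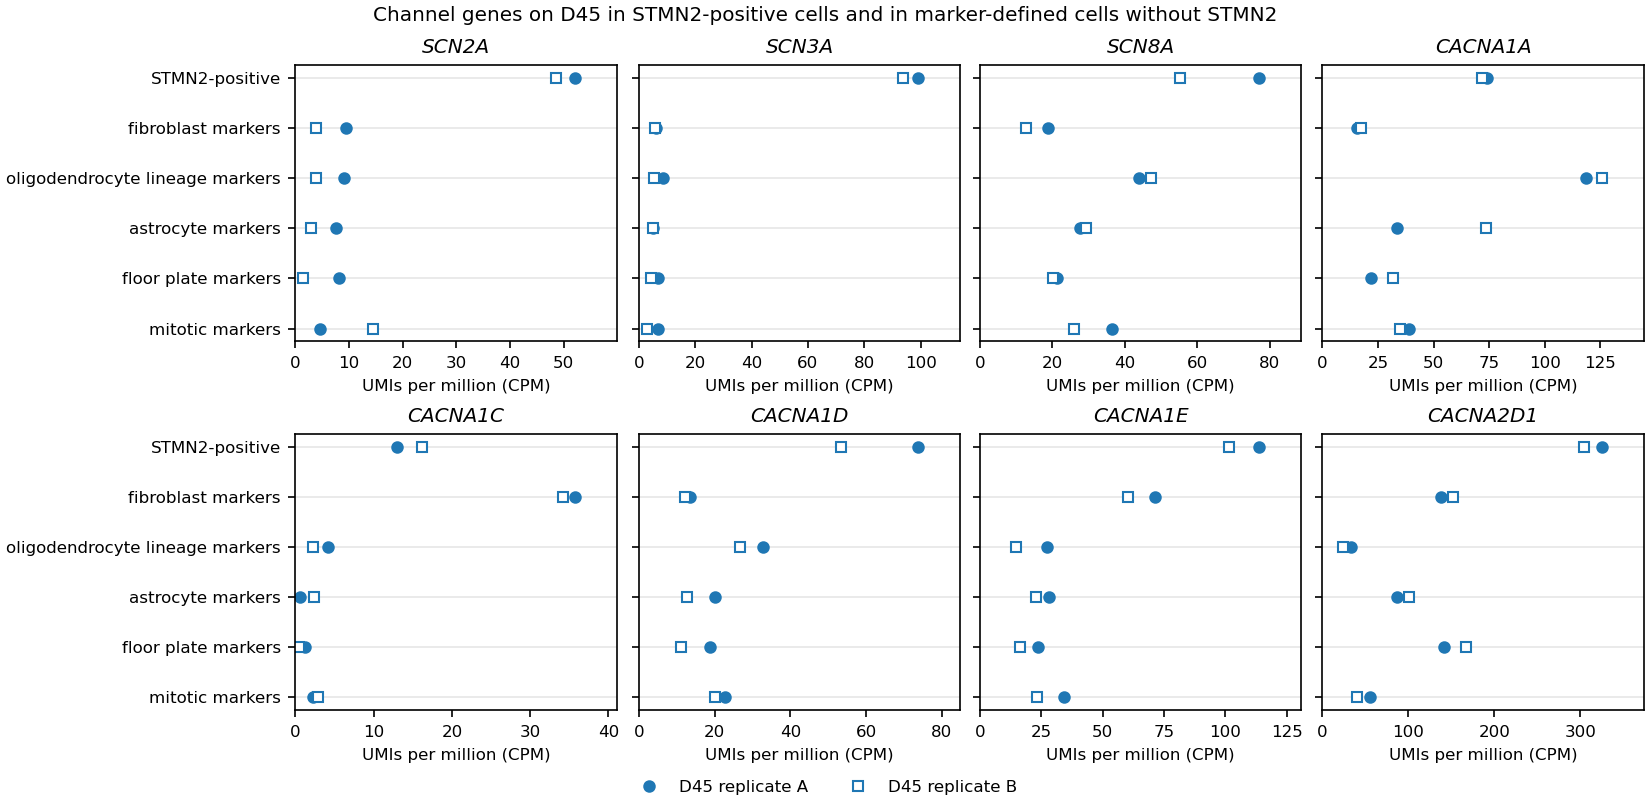
Level (CPM) of 8 channel genes on D45 in STMN2-positive cells and in cells without STMN2 that hold 3 or more markers of exactly 1 other list, 1 point per library. SCN2A and SCN3A stand highest in STMN2-positive cells, CACNA1A at 118 and 126 CPM in oligodendrocyte lineage marker cells, and CACNA1C at 35.7 and 34.2 CPM in fibroblast marker cells.

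GABAergic neurons (STMN2 with GAD1 or GAD2, which make GABA, and no vesicular glutamate transporter) and glutamatergic neurons (STMN2 with SLC17A6, SLC17A7 or SLC17A8, and no GAD) differed in 1 channel gene, CACNA2D1. GABAergic cells numbered 40 and 47 on D11, 146 and 1028 at D28 and 3193 and 1890 at D45, and glutamatergic cells 351 and 488, 3175 and 3028, and 1521 and 1869. SLC32A1, the vesicular GABA transporter, which was not used to set the gates, was 5.31 higher in GABAergic cells on the log2 scale.

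CACNA2D1 in GABAergic cells was at 114 and 140 CPM on D11, 255 and 185 CPM on D28, and 191 and 129 CPM on D45, from 51 UMIs in the smallest sum to 4418 in the largest. In glutamatergic cells it was at 1048 and 935, 634 and 1126, and 916 and 813 CPM. The 2 kinds did not overlap on any day, and the lowest glutamatergic library lay above the highest GABAergic one. The fitted difference was -2.44 (SE 0.164, edgeR adjusted p = 6.03e-07), lower in GABAergic cells in 6 of 6 libraries, where 4.47% of 17157 genes were lower in every library, 2.10% were called lower and 2.81% were called in all. It passed under all 17 alternatives, between -3.01 and -2.35. In the stricter gate, where the 19 GABAergic cells of D11 replicate A were too few to be summed, it was at 156, 375, 152, 160 and 86.9 CPM against 1406, 840, 1619, 1305 and 1310 CPM in the same 5 libraries. A CACNA2D1 UMI was found in 29.5 to 53.4% of GABAergic and 69.9 to 85.3% of glutamatergic cells. With every cell thinned to 2000 UMIs these shares were 16.7 to 42.3% in the 4 libraries of D28 and D45 with enough GABAergic cells and 62.9 to 86.5% in glutamatergic cells of the 6 libraries. Among cells without STMN2 the thinned share was 1.09 to 6.22% with oligodendrocyte lineage markers, 14.1 to 26.3% with fibroblast markers, 19.6 and 20.2% with astrocyte markers and 7.86 to 35.6% with floor plate markers. Over libraries the GABAergic shares overlapped with those of the last 3 groups, and the order differed between libraries. In D28 replicate A the GABAergic share was 42.3%, against 14.7% with fibroblast and 22.1% with floor plate markers. In D45 replicate B it was 16.7%, against 26.3 and 30.1%. These shares were not tested against each other. The glutamatergic shares lay above those of all these groups.

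**Figure D3:**
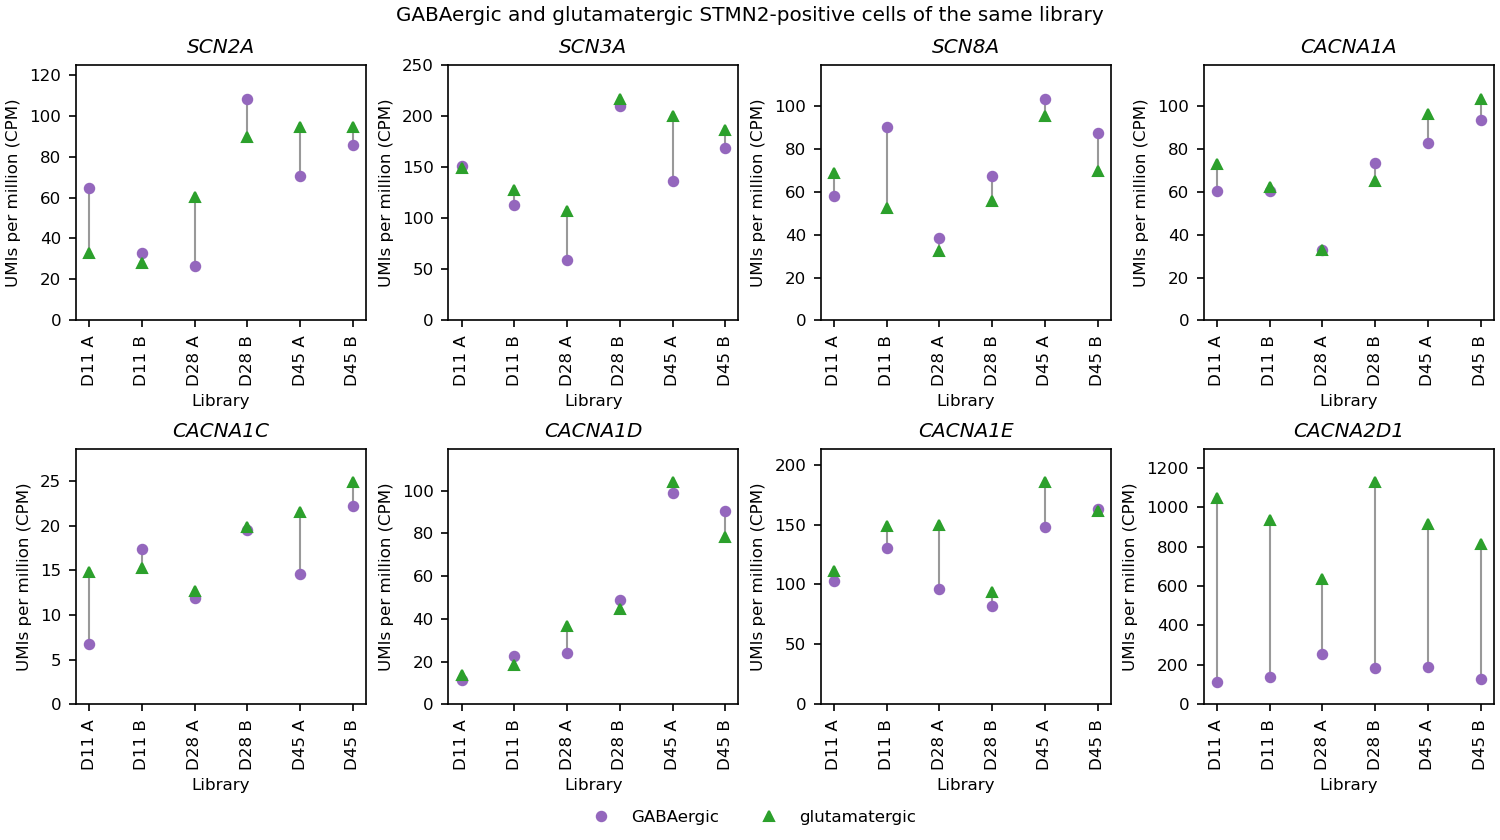
Level (CPM) of 8 channel genes in GABAergic (circles) and glutamatergic (triangles) cells of each of 6 libraries. CACNA2D1 lay at 114 to 255 CPM in GABAergic and 634 to 1126 CPM in glutamatergic cells, and the 2 kinds overlapped in the other 7 genes.

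The other 7 channel genes passed no test between GABAergic and glutamatergic cells, though SCN3A was called lower in GABAergic cells in 2 of 17 alternatives, with no low-count filter and without cells of mixed markers (-0.43 and edgeR adjusted p = 0.0284 in the latter). SCN2A differed by -0.13 (edgeR adjusted p = 0.838), SCN3A by -0.31 (0.167), SCN8A by 0.24 (0.284), CACNA1A by -0.09 (0.727), CACNA1C by -0.25 (0.442), CACNA1D by -0.01 (1) and CACNA1E by -0.26 (0.175). On D45, where GABAergic cells were most numerous, CACNA1D was at 99.0 and 90.6 CPM in GABAergic and 104 and 78.4 CPM in glutamatergic cells, and SCN2A at 70.4 and 85.6 against 94.3 and 94.5 CPM. Of the lists of other cell types, 3 of 5 astrocyte markers and 1 of 6 floor plate markers were lower in GABAergic cells and no fibroblast, oligodendrocyte lineage or mitotic marker passed. The summed astrocyte list was at 4.47 to 198 CPM in GABAergic and 17.5 to 268 CPM in glutamatergic cells, and its part in the result was not tested. STMN2 itself differed by -0.39 (edgeR adjusted p = 0.0239), and ANK3, the ankyrin that anchors sodium channels at the axon initial segment, by -0.47 (edgeR adjusted p = 0.0258).

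Within each kind of neuron the day course of CACNA1D was seen again. In GABAergic cells CACNA1D went from 11.2 and 22.5 CPM on D11, which rest on 5 and 13 UMIs, through 23.8 and 48.7 CPM to 99.0 and 90.6 CPM on D45. In glutamatergic cells it went from 13.8 and 18.5 through 36.5 and 44.7 to 104 and 78.4 CPM, and in TH-positive cells from 19.2 and 15.2 through 37.0 and 51.3 to 92.7 and 69.9 CPM. In all 3 kinds both D45 libraries lay above D11, as they did for 42.5% of all genes tested in GABAergic, 48.7% in glutamatergic and 53.7% in TH-positive cells.

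The D45 against D11 increase of CACNA1D was 2.30 in GABAergic cells (SE 0.420, edgeR adjusted p = 0.00326), where 3.81% of 14340 genes were called higher and 8.01% in all. It was 2.28 in glutamatergic cells (SE 0.236, edgeR adjusted p = 0.000793), where 8.87% were called higher and 16.7% in all, and 1.95 in TH-positive cells (SE 0.230, edgeR adjusted p = 0.00112), where 11.8% were called higher and 21.8% in all. The GABAergic call was lost without D11 replicate A (1.94), in the stricter gate (1.35) and with 2 or more UMIs of the class genes (1.89). Each of these fits held a single D11 library. The 3 kinds share the libraries, and TH-positive cells overlap with the other kinds. On D11, 10 of 540 and 6 of 679 TH-positive cells were GABAergic and 58 and 61 glutamatergic, on D28 26 of 1520 and 280 of 1519 were GABAergic and 585 and 599 glutamatergic, and on D45 427 of 1047 and 427 of 1723 were GABAergic and 131 and 291 glutamatergic. The TH-positive cells of different days thus differ in make-up, and its part in their day differences was not tested. Markers of other cell types also moved within the 3 kinds. Over the libraries of the 3 kinds, the summed fibroblast list was at 0 to 8.76 CPM on D11 and 297 to 1511 CPM on D45, the oligodendrocyte lineage list at 10.4 to 27.2 and 254 to 472 CPM, and the astrocyte list at 4.46 to 18.0 and 124 to 268 CPM. The floor plate list was at 223 to 930 CPM on D11 and 135 to 306 CPM on D45, and the mitotic list at 63.3 to 895 and 37.6 to 119 CPM. Both lists were lower on D45 in GABAergic and glutamatergic cells, while in TH-positive cells the days overlapped. There the floor plate list was at 223 and 242 CPM on D11 and 155 and 274 CPM on D45. The mitotic list was at 63.3 and 123 and then 37.6 and 106 CPM in these cells. All 6 fibroblast markers were at 0 in the GABAergic cells of D11 replicate B, and the part of these lists in the day differences of any kind was not tested.

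**Figure D4:**
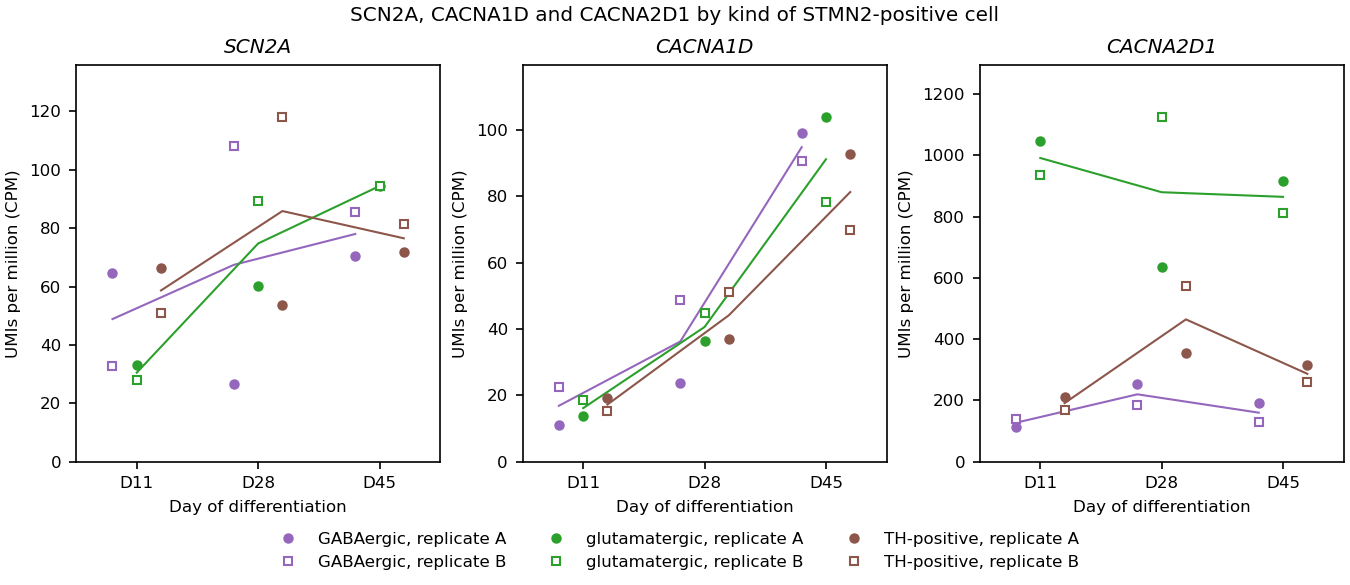
Level (CPM) of SCN2A, CACNA1D and CACNA2D1 on D11, D28 and D45 in GABAergic, glutamatergic and TH-positive cells, 1 point per library with lines through the day means. CACNA1D rose in all 3 kinds, SCN2A went from 33.0 and 28.0 to 94.3 and 94.5 CPM in glutamatergic cells, and CACNA2D1 stayed highest in glutamatergic cells on each day.

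SCN2A rose from D11 to D45 in glutamatergic cells, from 33.0 and 28.0 CPM through 60.0 and 89.5 CPM to 94.3 and 94.5 CPM, a difference of 1.43 (edgeR adjusted p = 0.00302) that was lost without D11 replicate B (0.0585). In GABAergic cells it was at 64.7 and 32.9, 26.6 and 108, and 70.4 and 85.6 CPM, with a difference of 0.56 (adjusted p = 0.513). In TH-positive cells it was at 66.3 and 51.0 CPM already on D11, 53.6 and 118 CPM on D28 and 71.8 and 81.3 CPM on D45, a difference of 0.10 (adjusted p = 0.84). The D45 against D11 change of SCN2A was not shown to differ between GABAergic and glutamatergic cells: the test of that difference gave -0.87 (unadjusted p = 0.0352, edgeR adjusted p = 0.565). None of the 8 members passed that test, which 0.606% of all genes passed and 8.01% passed at an unadjusted p under 0.05. CACNA2D1 did not pass between D45 and D11 within any kind, with 0.18 in GABAergic, -0.40 in glutamatergic and 0.30 in TH-positive cells (edgeR adjusted p = 0.798, 0.358 and 0.438). CACNA1E in TH-positive cells was at 199 and 198 CPM on D11, 139 and 102 CPM on D28, and 145 and 139 CPM on D45. Its D45 libraries lay below those of D11, as they did for 22.5% of all genes tested, with a difference of -0.77 that did not pass (edgeR adjusted p = 0.0687). It was called lower in 4 of 17 alternatives, with DESeq2 (adjusted p = 0.0228), with no low-count filter (0.0214) and without either D28 library (0.00343 and 0.00423).

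TH-positive cells (STMN2 with a UMI of TH, the rate-limiting enzyme of dopamine synthesis) were set against the TH-negative STMN2-positive cells of the same library. They numbered 540 and 679 on D11, 1520 and 1519 at D28 and 1047 and 1723 at D45. Of the other dopaminergic markers, SLC6A3 was higher in them by 3.17, SLC18A2 by 1.71 and DDC by 1.59 on the log2 scale, while NR4A2 was at 0.02 and was not called. These differences hold for the gate of at least 1 STMN2 UMI and are not given for the stricter gate. Differences of the rest of the 13 dopaminergic markers are not given. Among these, PITX3 was at 0 in TH-positive cells of both D11 libraries and ALDH1A1 in those of D11 replicate A. TH-negative cells of D11 held UMIs of both genes.

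By this gate 7 of the 8 channel genes were higher in TH-positive cells, each in 6 of 6 libraries, where 17.8% of 19047 genes were higher in every library, 16.5% were called higher and 34.5% were called in all. SCN2A, for example, was at 66.3 and 51.0, 53.6 and 118, and 71.8 and 81.3 CPM in TH-positive and at 13.3 and 9.33, 26.0 and 45.2, and 49.7 and 41.8 CPM in TH-negative cells. The differences were 1.43 for SCN2A (edgeR adjusted p = 0.00578), 1.02 for SCN3A (0.00103), 0.84 for SCN8A (0.00827), 0.73 for CACNA1A (0.0168), 0.96 for CACNA1C (0.00837), 0.64 for CACNA1D (0.00293) and 1.01 for CACNA1E (0.00352). CACNA2D1 was at 0.08 (adjusted p = 0.565). Beside the stricter gate, described further on, calls were lost with cells thinned to equal UMIs for SCN8A, CACNA1A, CACNA1C, CACNA1D and CACNA1E (differences of 0.20 to 0.38, edgeR adjusted p = 0.086 to 0.364). Without cells of mixed markers those of SCN2A, SCN8A, CACNA1A, CACNA1D and CACNA1E were lost (0.14 to 0.35, adjusted p = 0.0772 to 0.295), and that of CACNA1A also without either D28 library (0.0528 and 0.0576).

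The cells compared also differed in depth and in cell type markers. TH-positive cells had a median of 8055 to 15143.5 UMIs and TH-negative cells 2985 to 10814. STMN2 was 1.54 higher in TH-positive cells, 8 of 9 neuron markers were higher, and 6 of 6 fibroblast, 7 of 8 oligodendrocyte lineage, 4 of 5 astrocyte, 4 of 6 floor plate and 5 of 5 mitotic markers were lower, where 18.0% of all genes were. The summed fibroblast list was at 1.56 to 1511 CPM in TH-positive and 11.6 to 2332 CPM in TH-negative cells, the oligodendrocyte lineage list at 16.3 to 472 and 24.6 to 1038 CPM, the astrocyte list at 4.46 to 244 and 35.8 to 467 CPM, the floor plate list at 155 to 508 and 215 to 1607 CPM, and the mitotic list at 37.6 to 138 and 183 to 1079 CPM.

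In the stricter gate the summed fibroblast list was at 0.706 to 75.3 CPM in TH-positive and 2.20 to 76.3 CPM in TH-negative cells. There none of these 7 genes passed, with differences between -0.12 and 0.21 on the log2 scale. Of all genes, 948 were called, 6.44% of those tested, with 2.58% called lower. By direction, CACNA1C was higher in TH-positive cells in 6 of 6 libraries, SCN2A and SCN8A in 4, and CACNA1A and CACNA1D in 3. SCN3A and CACNA1E were lower in 5 of 6. The share of all genes with such directions is not given for this gate. SCN2A was then at 71.6 and 58.3, 66.2 and 140, and 75.6 and 113 CPM in TH-positive and at 58.3 and 47.8, 74.8 and 115, and 87.8 and 111 CPM in TH-negative cells. CACNA2D1 turned the other way. It was at 206 and 145, 502 and 692, and 338 and 309 CPM in TH-positive and at 430 and 460, 860 and 1186, and 609 and 768 CPM in TH-negative cells, lower in 6 of 6 libraries, with a difference of -1.03 (edgeR adjusted p = 0.000626). It was also called lower in TH-positive cells with cells thinned to equal UMIs (-0.50, adjusted p = 0.00115), at 3 or more STMN2 UMIs (-0.61, 0.0023), with 2 other neuron markers (-0.25, 0.0109) and without cells of mixed markers (-0.79, 0.00145). In the stricter gate the glutamatergic list was at 18.7 to 197 CPM in TH-positive and 93.6 to 299 CPM in TH-negative cells, lower in each of the 6 libraries, and its part in the CACNA2D1 result was not tested.

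**Figure D5:**
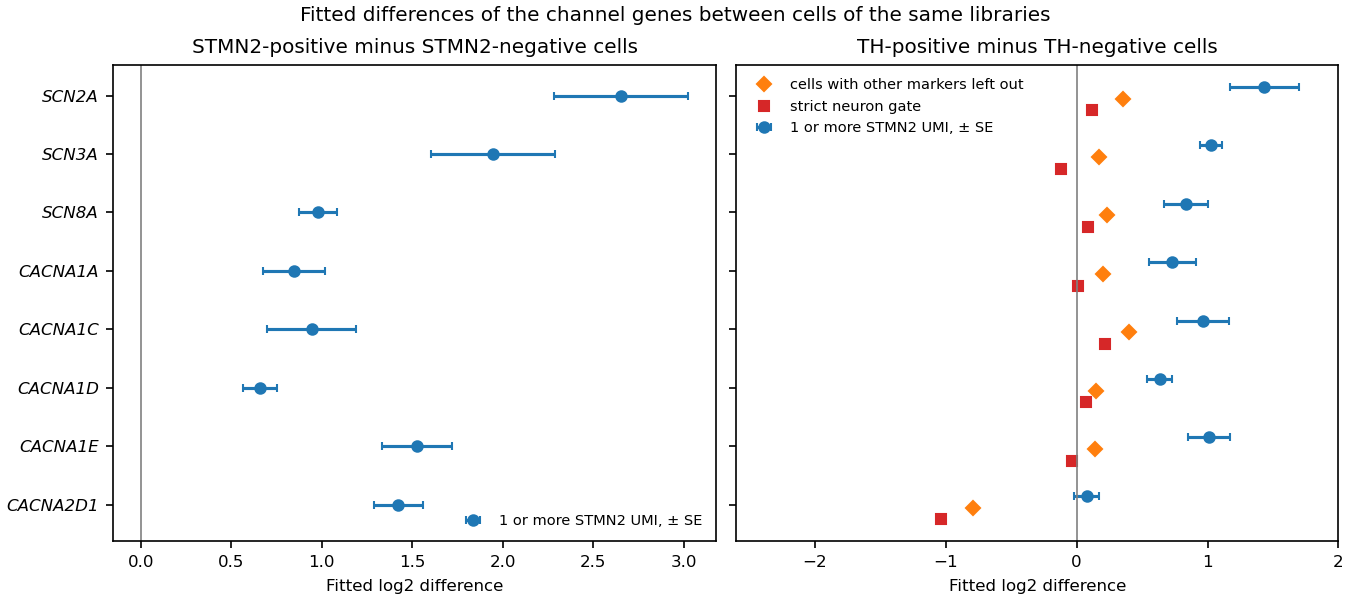
Fitted log2 difference between TH-positive and TH-negative STMN2-positive cells for 8 channel genes, with SE as bars, beside the differences without cells of mixed markers (diamonds) and in the stricter gate (squares). The 7 genes at 0.64 to 1.43 in the wide gate stood between -0.12 and 0.21 in the stricter one, and CACNA2D1 went from 0.08 to -1.03.

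Shares of cells with a UMI were also compared at equal depth. With cells thinned to 2000 UMIs, a CACNA1D UMI was found in 3.41 and 2.19% of STMN2-positive cells on D11, 7.71 and 8.16% at D28 and 13.8 and 13.2% at D45. In the STMN2-negative cells of the same libraries it was found in 1.44 and 1.43%, 2.87 and 3.20%, and 8.83 and 4.84%. Cells without STMN2 held it in 1.79 to 4.16% with fibroblast markers (D28 and D45), 2.17 to 5.18% with oligodendrocyte lineage markers and 1.81 to 11.11% with floor plate markers. The unthinned shares were 10.0 and 7.85, 16.5 and 19.6, and 22.9 and 21.6%, and 8.31 to 25.6% in fibroblast marker cells, whose median depth was 9741.5 to 13472 UMIs. The thinned share in STMN2-positive cells was above that of STMN2-negative cells in each of the 6 libraries. The ranges of the marker groups pool libraries of different days. Their highest value, 11.11%, rests on 45 floor plate marker cells of D45 replicate A and does not bear on earlier days. The D28 shares of 7.71 and 8.16% lay above the whole fibroblast and oligodendrocyte lineage ranges. These shares were not tested against each other. A SCN2A UMI was found in 7.63 and 5.67% of thinned STMN2-positive cells on D11, 9.41 and 14.4% at D28 and 13.0 and 13.4% at D45, against 0.715 to 1.09% in fibroblast marker cells and 0.254 to 4.40% in STMN2-negative cells. Thinning left out cells under 2000 UMIs, which left 9233 to 14671 cells per library, and the STMN2 gate was applied to the thinned counts, which kept 1848 to 5978 STMN2-positive cells per library. Cells whose STMN2 UMIs were all lost in thinning then counted as STMN2-negative, so that the thinned and unthinned shares are over different cells.

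Around these members, the other genes of the channel families were counted in the same fits. Of 18 other calcium channel genes tested in STMN2-positive cells, 3 rose from D11 to D28, where 8.57% of all genes tested were called higher, and 5 from D11 to D45, where 14.2% were, and none fell. CACNA1G, a T-type pore, went from a day mean of 4.57 CPM on D11 to 13.0 and 17.1 CPM, by 1.34 (edgeR adjusted p = 0.00794) and 1.61 (0.00235), and CACNA1I, also T-type, from 0.354 to 2.02 CPM on D45, by 2.19 (0.00629). CACNG2, which also serves AMPA receptors, rose by 1.53 to D28 (0.00835) and the auxiliary subunit CACNA2D3 by 1.12 (0.0141). Of 10 other sodium channel genes, 1 fell to D28, where 7.46% of all genes were called lower, and by D45 1 rose and 2 fell, where 13.0% were called lower. SCN9A went from 101 to 74.6 CPM, a difference of -0.74 (0.0332), and SCN10A from 1.29 to 0.0637 CPM, which rests on 12 UMIs on D45. Of 11 anchors and modulators 3 rose in each of these comparisons and none fell.

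REST was at a day mean of 125 CPM on D11, 93.4 CPM on D28 and 100 CPM on D45 in STMN2-positive cells, with differences from D11 of -0.61 on D28 (edgeR adjusted p = 0.0465) and -0.62 on D45 (0.0319). For its partner RCOR2 these were -1.33 (0.00804) and -1.69 (0.00205). Both genes of this list were thus called lower, where 7.46 and 13.0% of all genes were. TMM scaling subtracted 0.18 and 0.30 from these differences, and the plain REST mean of D45 stood above that of D28. Alternatives and the stricter gate are not given for either gene. The floor plate and mitotic lists fell in the same sums, as given above, and their part in the REST and RCOR2 differences was not tested. REST was also lower in STMN2-positive than STMN2-negative cells, at -0.43 (edgeR adjusted p = 0.000579), where 12 of 18 other calcium channel genes, 4 of 10 other sodium channel genes and 9 of 11 anchors and modulators were higher, against 14.0% of all genes called higher, among them CACNG3 by 2.96, CACNG2 by 2.36 and STAC2, an L-type channel modulator, by 1.68.

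As a description of likeness, the members were correlated with all named genes on log2(CPM + 1) over 24 sums, 6 libraries by 4 kinds of cell, which share libraries and depth. The most similar gene, given for 7 members, was LHFPL4 for SCN2A (Pearson r = 0.983), ST8SIA3 for SCN3A (0.976), UNC80 for SCN8A (0.966), AGAP1 for CACNA1A (0.980), CATSPERG for CACNA1C (0.925), SRPK2 for CACNA1D (0.968) and ANO5 for CACNA2D1 (0.947). Between members the highest value was that of SCN8A with CACNA1A (0.955) and the lowest that of SCN8A with CACNA2D1 (0.419).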

How the data were processed

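Single cells of porcine midbrain-like organoids on D11, D28 and D45 (2 libraries each) were measured by droplet sequencing of transcript 3' ends (10x GEM-X, v4 chemistry). The authors aligned reads to Sscrofa11.1 with Cell Ranger (8.0.1 in the file headers), and the submitters' processing notes also name Seurat 4.3.0. The deposited values are whole-number UMI counts per gene and cell barcode, not normalized. The series text states 103310 cells, the files hold 104820 barcodes, and 103519 were left by the filter used here (13 mitochondrial genes named in the files). The study's own clusters were not used, and no doublet caller was run. Columns of no other samples were present.

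Counts were summed per library and kind of cell (at least 20 cells) and tested with edgeR 4.0.16 in R 4.3.3 (quasi-likelihood test after TMM and filterByExpr, adjusted by Benjamini-Hochberg, called under 0.05). Fits over days held all 6 libraries, save in alternatives where a library was left out or had too few cells. Library was a term in comparisons within libraries. The fits were tested on simulated data. DESeq2 1.42.0, its size factors, no low-count filter, no cell filter, other neuron gates, class genes at 2 or more UMIs, cells thinned to 2000 UMIs, the replicate letter and each library left out were alternatives. Summing was done in python 3.11.15. The members and gene lists were chosen with earlier results of these data known. Genes named outside the members are those of the channel, anchor and RE1 lists with the largest called changes without overlap between libraries, REST, and marker genes of the cell kinds. SDs are between the libraries of a day, SEs are those of the fitted differences, and shares are given without an error. Bulk RNA and recordings were not analysed here. A gene called among the other sodium channel genes and the gene most like CACNA1E are not reported here.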

Additional observations from a re-analysis of the deposited data

How the results depend on the processing

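Over all alternatives 1384 values for single channel genes were recomputed, of which 1176 kept direction and side of the threshold, 76 lost a call, 29 gained one and 103 changed sign, 101 of these where no call had been made. The fall of CACNA2D1 in GABAergic against glutamatergic cells and the rise of CACNA1D from D11 to D45 in STMN2-positive cells, in whole organoids and in glutamatergic and TH-positive cells were called under every alternative run. Each day has 2 libraries, so that leaving out 1 library moved counts of called genes widely. Sums of GABAergic cells on D11 rest on 40 and 47 cells, which gives them little precision. Thinning was not run for D45 against D11 in GABAergic cells or for the difference between GABAergic and glutamatergic cells, where D11 held too few cells. Unless a value shows it, the cause of a change was not tested.

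The letters A and B did not pair the libraries (correlations of deviations -0.265, 0.0638 and -0.211). With the replicate block the called genes went from 3428 to 1984 in D28 against D11 and from 1306 to 336 in D45 against D28, and CACNA1D in D45 against D11 was at 2.20 (edgeR adjusted p = 0.0027). Without the pairing by library, the called genes were 3079 for STMN2-positive against negative cells (7547 with it), 82 for GABAergic against glutamatergic cells (482), 4016 for TH-positive against TH-negative cells (6568) and 5 for the difference of days between kinds (104), where CACNA1D was at -0.00027.

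Other counts of called genes that moved by over 1.5 times were as follows. For D28 against D11, thinning gave 1867. For D45 against D28, the DESeq2 test gave 3400, thinning 480, 3 or more STMN2 UMIs 572, leaving out mixed cells 533 and the stricter gate 229. For D45 against D11, thinning gave 3775 in place of 5832. For GABAergic against glutamatergic cells, no low-count filter gave 907 and 2 UMIs of the class genes 841. For TH-positive against TH-negative cells, thinning gave 1948, leaving out mixed cells 2635 and the stricter gate 948. For D45 against D11 in GABAergic cells (1149), 3 or more STMN2 UMIs gave 738, leaving out mixed cells 688, the stricter gate 355 and 2 class UMIs 472. In glutamatergic cells (2840), thinning gave 960, the stricter gate 1713 and 2 class UMIs 1828, and in TH-positive cells (3525) thinning gave 1174. For the difference of days between kinds, no filter gave 249, 3 or more STMN2 UMIs 184, and leaving out mixed cells and 2 class UMIs each gave 157.

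For the differences that the text prints, signs changed as follows, and the other sign changes were of uncalled differences within kinds of neuron or in the difference of days. For CACNA1C in D28 against D11, -0.28 at 3 STMN2 UMIs, -0.069 with 2 other neuron markers, -0.20 without mixed cells and -0.24 in the stricter gate. For D45 against D28, SCN2A was at -0.082, -0.025 and -0.068 in the last 3 of these, and SCN3A at 0.021 with no cell filter and 0.083 in the stricter gate. For D45 against D11, SCN8A was at -0.045, CACNA1A at -0.071 and CACNA1C at -0.048 at 3 STMN2 UMIs, SCN3A at -0.0046 with 2 other markers, CACNA1A at -0.074 and CACNA1C at -0.15 without mixed cells, and CACNA1A at -0.023 and CACNA1C at -0.14 in the stricter gate. For GABAergic against glutamatergic cells, CACNA1D was at 0.0030 with DESeq2, 0.0087 with its size factors and 0.012 with 2 class UMIs, and CACNA1A at 0.025 thinned. For TH-positive cells, CACNA2D1 was at -0.50 thinned, -0.61 at 3 STMN2 UMIs, -0.25 with 2 other markers, -0.79 without mixed cells, -1.03 in the stricter gate and -0.10 at 2 TH UMIs, with SCN3A at -0.12 and CACNA1E at -0.034 in the stricter gate. Within kinds from D11 to D45, CACNA2D1 was at -0.18, -0.061, -0.44 and -0.42 in GABAergic cells under the 4 gates and at -0.25 in thinned TH-positive cells. For the difference of days between kinds, CACNA1D was at -0.0073 with DESeq2 size factors, -0.55 without mixed cells and -0.81 in the stricter gate, and CACNA2D1 at -0.042 and -0.13 in the latter gates.

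Leaving out each of the 6 libraries in turn gave 610 to 8536 called genes for D28 against D11, 0 to 8879 for D45 against D28 (0 without D45 replicate A with edgeR, where 3096 genes had an unadjusted p under 0.05, and 8879 without D28 replicate B), 1544 to 10251 for D45 against D11, 2797 to 12297 in whole organoids (7695 with all), 306 to 518 for GABAergic against glutamatergic cells, 312 to 2819, 763 to 5836 and 898 to 6114 for D45 against D11 in GABAergic, glutamatergic and TH-positive cells, and 57 to 169 for the difference of days between kinds. Of uncalled differences that changed sign, SCN2A ranged from -0.18 to 0.49 in D45 against D28, -0.062 to 0.25 in D45 against D11 in TH-positive cells and -0.25 to 0.015 in GABAergic against glutamatergic cells, and SCN3A from -0.22 to 0.67 in D28 against D11 and -0.40 to 0.50 in D45 against D28. CACNA1D ranged from -0.10 to 0.081 between GABAergic and glutamatergic cells and -0.11 to 0.50 in the difference of days, and CACNA2D1 from -0.16 to 0.45 across days in GABAergic cells and -0.0045 to 0.13 in TH-positive against TH-negative cells.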

Other observations

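STMN2-positive cells in neither the GABAergic nor the glutamatergic group (no marker gene of either kind, or marker genes of both) were the largest group on each day and are described by values alone. SCN2A was at 21.7 and 14.2 CPM in them on D11, 15.97 and 32.5 CPM on D28, and 35.0 and 26.7 CPM on D45. CACNA1D was at 11.101 and 10.1, 23.0 and 23.0, and 56.6 and 37.2 CPM, and CACNA2D1 at 89.0 and 64.2, 225 and 285, and 244 and 197 CPM. On D45 these cells had a median of 1851.5 and 3946 UMIs, against 6631 and 6738 UMIs in GABAergic cells.

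The D28 libraries stood apart from each other in most channel genes. In STMN2-positive cells SCN3A was at 58.5 CPM in replicate A and 130 CPM in replicate B, CACNA1A at 21.3 and 49.1 CPM and SCN8A at 22.5 and 43.2 CPM, while CACNA1E was higher in replicate A, at 81.6 against 59.1 CPM. The stricter gate kept this order, with SCN3A at 134 and 279 CPM, CACNA1A at 37.6 and 84.2 CPM and CACNA1E at 180 and 104 CPM. The median STMN2-positive cell held 6035 UMIs in replicate A and 8271 in replicate B.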
